A study of Mus musculus with 4 samples.

Results

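The peaks described here lie in or beside 10 mouse genes for voltage-gated calcium channels: Cacna1a, Cacna1b, Cacna1c, Cacna1d, Cacna1e, Cacna1g, Cacna1h, Cacna1i, Cacna2d1 and Cacna2d3. A peak of a TOP2B cleavage complex list was assigned to a gene when its summit, the base of highest signal, lay in the gene's span on build GRCm38 or within 10 kb of it. This gave 76 of the 35539 peaks in the list. The assignment used position alone, and the 10 genes leave out 16 further subunit genes of the family, 4 of which held no summit.

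Voltage-gated calcium channels open when the membrane depolarises and let calcium into the cell, where it triggers transmitter release, shapes firing and feeds signals to the nucleus. The α1 subunit forms the pore and sets the channel type, while α2δ, β and γ subunits act on its trafficking and gating. TOP2B, a type II topoisomerase found in neurons, passes DNA through a transient double-strand break and is held covalently to the cut ends in a cleavage complex, which etoposide traps by blocking religation.

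The cells were cortical neurons cultured from embryonic day 16 Swiss-Webster mice of wild-type genotype. All libraries came from neurons given etoposide at 50 µM for 30 min, and no untreated group is among them. TOP2B was captured by native chromatin immunoprecipitation (ChIP) in 2 libraries, with 2 input libraries beside them, and the labels do not tie these to separate cultures. The values are a single list pooled over libraries, so nothing below carries a standard deviation or an n of cultures. Every comparison is between genes or peaks within this list, and sequencing depth is unknown. A peak list does not measure expression, so the labelled cell type was not checked against marker genes.

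Each peak has a fold enrichment over control and a q-value, both the authors' caller's own values, used here to describe peaks within the list. Whole-number pileups at the summit, called fragments here, and the control level were worked out from the fold and p that the authors deposited. Most folds take one of a few steps, since a summit holds few fragments and most summits share the same lowest control level of 4.78. Exons and introns were not annotated, and coordinates are 1-based. Intervals given for counts and shares are 95% intervals (exact Poisson for counts per length, Wilson for shares) and cover counting error only.

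All 10 genes held at least 4 summits, and Cacna1c held most, with 13. As background, 55.5% of the 20665 autosomal protein-coding genes had a summit in the same kind of window. Among the 3860 long genes, those at least as long as the shortest of the 10, Cacna1h, the share was 87.9%. Their median span was 114.6 kb, shorter than all of the 10 but Cacna1g, Cacna1h and Cacna1i. The 87.9% is therefore not matched to the 10 in length, and a summit in each of the 10 was already close to it. The 10 windows together held 2.05 summits per 100 kb (1.61 to 2.56), against 1.82 over all autosomal protein-coding genes and 1.60 over the long ones. A regression of summit count on window length over all 20665 genes gave 55.99 summits for the 10 windows, where 76 were counted. The count exceeded the fitted value in 9 of the 10 genes, all but Cacna1e, and in 43.9% of the long genes.

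**Figure D1:**
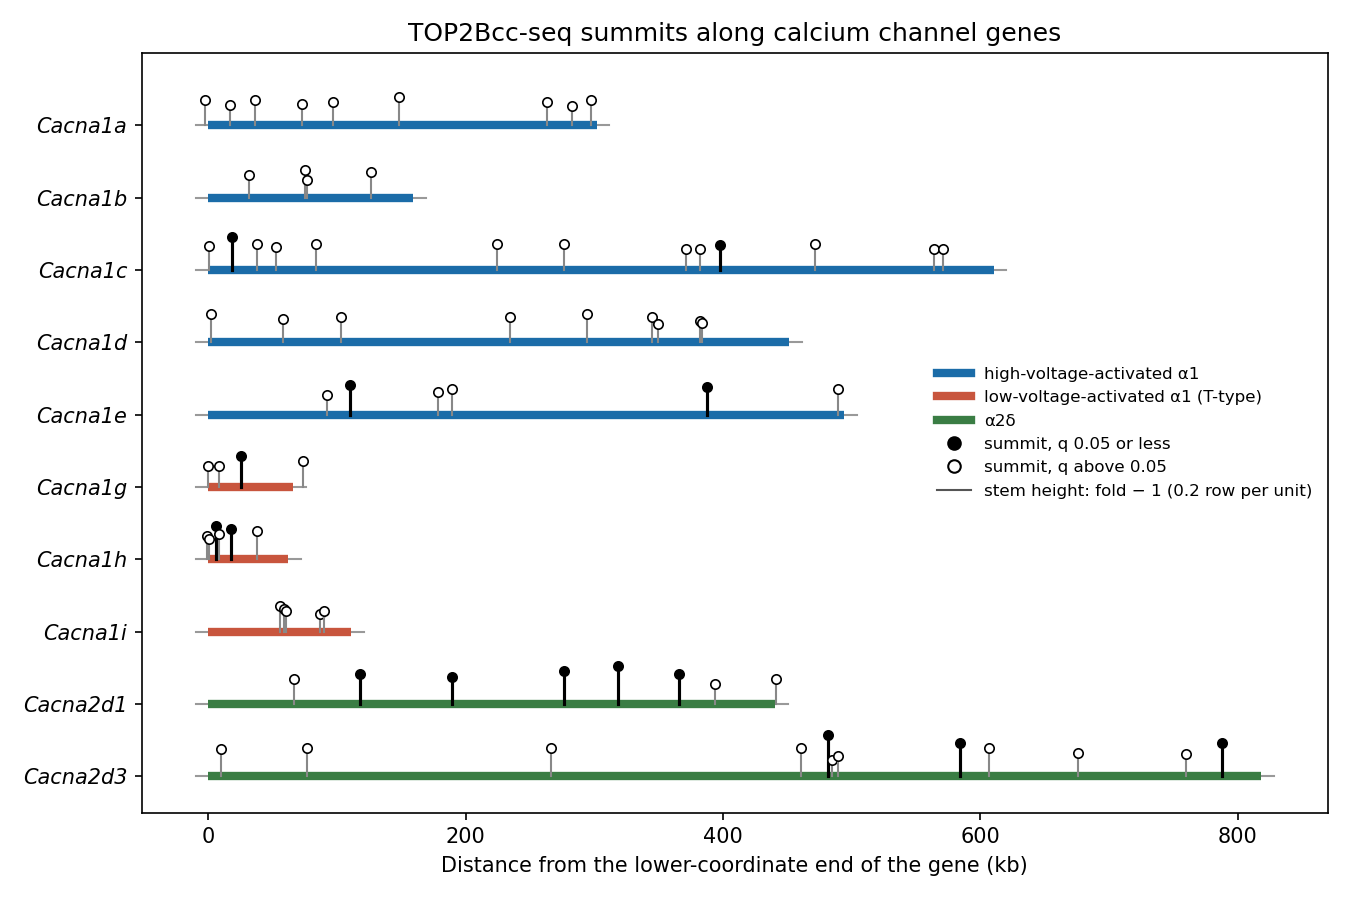
Positions of the 76 summits along the 10 calcium channel genes, each gene drawn from its lower-coordinate end with distance in kb on the horizontal axis. Stem height is the fold over control of each peak minus 1, and filled points mark the 15 peaks with a q of 0.05 or less, 5 of them in Cacna2d1 and none in Cacna1a, Cacna1b, Cacna1d or Cacna1i.

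No single gene was called as departing from the fit after adjustment. The negative binomial regression, tested two-sided with Benjamini-Hochberg adjustment, gave an adjusted p of 1 for each of the 10 genes and called 0% of all genes, the smallest adjusted p being 0.324. Before adjustment, 1.87% of genes, 387 in number, had an exact tail p under 0.05. Cacna1h was the single one of the 10 among them, with an exact tail p of 0.0306 at 3.86 times its fitted count. With so few summits per window even this ratio was not called, so the lack of a call does not show that counts matched the fit. A Poisson regression, which assumes no spread beyond counting, called 11 genes (0.0532%) and again none of the 10. Its smallest adjusted p among them was 0.934, for Cacna1h.

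The genes of the high-voltage-activated channels, which open at strong depolarisation, held 41 summits in 5 windows. Their density was 1.94 per 100 kb (1.39 to 2.63), and the count was 1.28 times the fitted 31.9. Cacna1c encodes the pore of an L-type channel that couples depolarisation to gene expression in neurons and to contraction in heart muscle. It spans chromosome 6 from 118587240 to 119197384, on the minus strand, and all 13 summits lay inside the gene. Its density was 2.06 per 100 kb (1.10 to 3.53), higher than in 86.3% of the 124 genes within 20% of its window length. The strongest Cacna1c peak, summit at 118605145, had a fold of 3.31, a q of 0.0118 and 19 fragments. It lay 17.9 kb inside the lower end, which is the 3′ end, and also within the predicted gene Gm38887. A second peak at 118984893, also in Gm50599, had a q of 0.0390 but a fold of only 2.71, because its 21 fragments stood over a control level of 7.11, the highest at any of the 76 summits. The other 11 Cacna1c peaks had a q above 0.05.

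Cacna1d, the other L-type pore gene of the 10, encodes a channel that opens at more negative voltages than that of Cacna1c and takes part in pacemaking. It lies on chromosome 14 from 30039941 to 30491156 and held 9 summits, or 1.91 per 100 kb (0.873 to 3.63). None had a q of 0.05 or less, and the folds ran between 2.27 and 2.94. A pair of its summits, at 30422277 and 30423499, were 1222 bp apart, and that at 30423499 lay in Gm18681. Another Cacna1d summit, at 30384271, lay in Gm18072.

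Cacna1a, Cacna1b and Cacna1e encode the P/Q-type, N-type and R-type pores. The P/Q-type and N-type channels carry most of the calcium that drives transmitter release at central synapses. Cacna1a, on chromosome 8 from 84338631 to 84640251, held 9 summits at 2.80 per 100 kb (1.28 to 5.31), a density above that of 91.5% of the 340 genes of like length. The 9 folds of Cacna1a lay between 2.32 and 2.94, with 13 to 16 fragments each, and the lowest q was 0.0675. The Cacna1a summit at 84636169 also lay in Gm39212. The Cacna1a summits stood apart, with no gap under 15135 bp. Cacna1b, on chromosome 2 from 24603860 to 24763200, held 4 summits at 2.23 per 100 kb (0.608 to 5.71). They had folds of 2.59, 2.94, 2.20 and 2.77 in coordinate order, and none had a q of 0.05 or less. The pair in the middle, at 24679063 and 24680264, was 1201 bp apart, the shortest gap among the 76.

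Cacna1e was the sparsest of the 10. It spans 494.0 kb of chromosome 1, from 154390806 to 154884785, and held 6 summits, where the fit gave 7.62. Its density of 1.17 per 100 kb (0.428 to 2.54) was above that of 32.7% of the 202 genes of like length. A stretch of 198.6 kb in Cacna1e had no summit, the longest such gap in any of the 10. Of its 6 peaks, 2 had a q of 0.05 or less, at 154501006 (fold 3.08, q 0.0318) and at 154778365 (fold 2.93, q 0.0390). The Cacna1e summit at 154880012 was 4.77 kb inside the start of the gene's span, the closest to such a start among the 7 genes whose strand is known.

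The T-type pore genes Cacna1g, Cacna1h and Cacna1i encode low-voltage-activated channels, which open near rest and support burst firing. They are the 3 shortest of the 10 genes and had the 3 highest densities. Their windows held 15 summits, or 5.01 per 100 kb (2.81 to 8.27), and the count was 2.72 times the fitted 5.51. Cacna1h, on chromosome 17 from 25374285 to 25436334, held 6 summits at 7.31 per 100 kb (2.68 to 15.9). That was above 98.3% of the 2033 genes of like length, whose median was 1.41. Its 6 folds in coordinate order were 2.59, 2.41, 3.29, 2.77, 3.11 and 2.94, and the summits at 25380352 and 25391976 had q-values of 0.0208 and 0.0390. The Cacna1h peak with its summit at 25382792 was 677 bp wide, the widest of the 76, with a fold of 2.77. The first Cacna1h summit lay outside the span, in the neighbouring gene Tpsg1, which encodes a mast cell tryptase.

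Cacna1i, on chromosome 15 from 80287238 to 80398292 and on the plus strand, held 5 summits in 2 groups. The first group lay at 80343177, 80346095 and 80347394, and the second at 80374262 and 80376898. The folds were low, 2.77, 2.59, 2.42, 2.25 and 2.42 in coordinate order, with 12 to 15 fragments, and the lowest q was 0.110. Density was 3.82 per 100 kb (1.24 to 8.90). Cacna1g, on chromosome 11 from 94408391 to 94474400, held 4 summits at 4.65 per 100 kb (1.27 to 11.9), but only 2 of these were inside its span. The strongest Cacna1g peak, at 94433929, had a fold of 3.11 and a q of 0.0390. One flanking summit, at 94482236, lay in Spata20.

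Summits were closely spaced in Cacna1i and Cacna1h but not in Cacna1g, where the shortest gap was 8043 bp. Of the 15 T-type summits, 9 (60%, 35.7 to 80.2) had another summit within 5 kb. These were all 5 of Cacna1i and 4 of Cacna1h, including that in Tpsg1, and none of Cacna1g. The share was 9.76% (3.86 to 22.5) in the high-voltage-activated genes and 15% (5.24 to 36.0) in the α2δ genes. It was 43.5% (30.2 to 57.8) in the 16 other calcium channel subunit genes and 29.6% (15.9 to 48.5) in the voltage-gated sodium channel α genes, whose intervals overlap that of the T-type genes. Over all 76 summits it was 21.1% (13.4 to 31.5), against 17.3% in the rest of the list. Both summits of a close pair count, so the intervals of these shares treat linked summits as independent and are too narrow. How far the T-type share follows from the higher density of these windows was not tested.

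In the 500 kb on either side of each window, outside the window itself, the list held 2.50 summits per 100 kb (1.97 to 3.13) for the T-type genes. The same flanks held 1.64 (1.30 to 2.04) for the high-voltage-activated genes and 0.850 (0.495 to 1.36) for the α2δ genes. Some flanks take in family genes, since those of Cacna2d3 and Cacna1d reach into each other's gene and that of Cacna1c holds Cacna2d4. By gene, the flanks of Cacna1h held 3.20 per 100 kb, those of Cacna1a 2.70, of Cacna1i 2.20 and of Cacna1g 2.10, and those of the other 6 genes 1.60 or less. Other protein-coding genes within this reach numbered 55 for Cacna1h, 30 for Cacna1g and 17 for Cacna1i. They numbered 50 for Cacna1a, 33 for Cacna1b, 17 for Cacna1d, 15 for Cacna1c and 7 or 8 for each of Cacna1e, Cacna2d1 and Cacna2d3. With chromosome added to the regression the observed count was 2.42 times the fitted one for T-type, 1.36 for high-voltage-activated and 1.22 for α2δ genes. Without Cacna1h, a setting chosen after seeing the data, the T-type density was 4.15 per 100 kb (1.90 to 7.87). The part of gene length and of neighbouring genes in these densities was not tested.

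**Figure D2:**
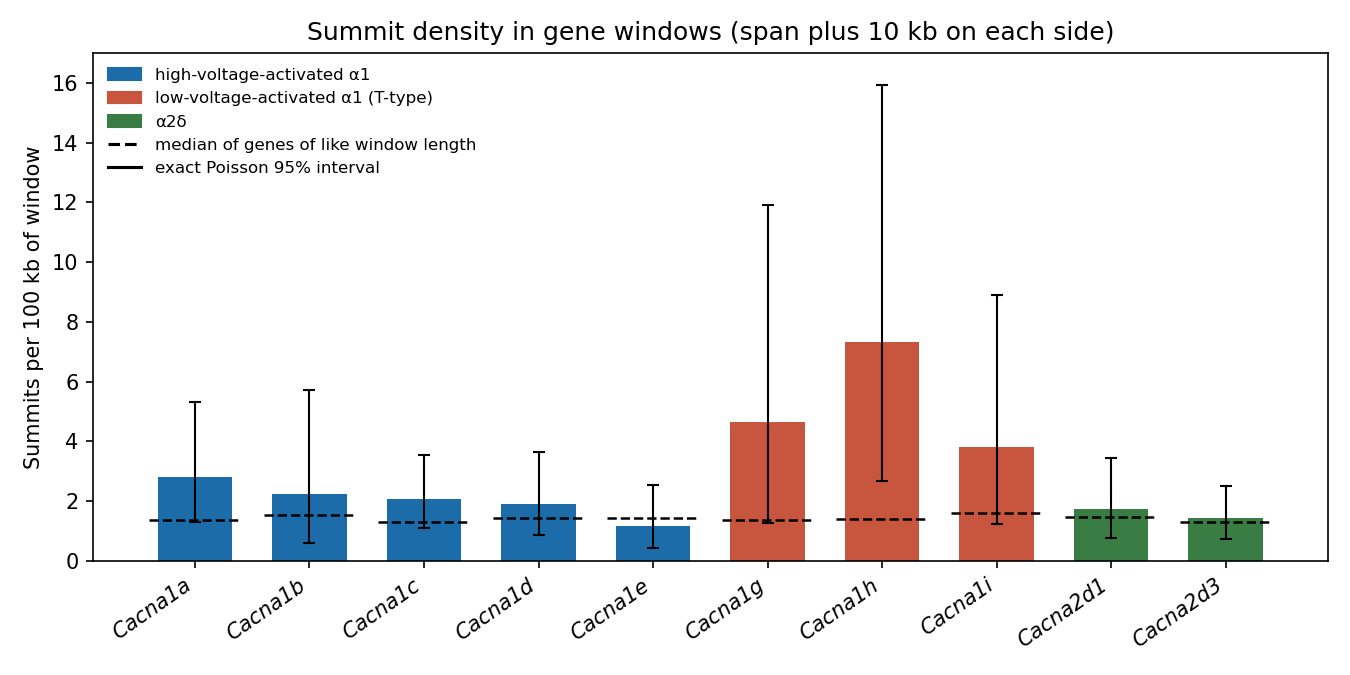
Summits per 100 kb of window in each of the 10 genes, grouped by channel class, with 95% exact Poisson intervals for counting error. Cacna1h is highest at 7.31 and Cacna1e lowest at 1.17, with intervals of 2.68 to 15.9 and 0.428 to 2.54. Dashed lines give the median of genes of like length, between 1.29 in Cacna2d3 and 1.58 in Cacna1i.

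**Figure D3:**
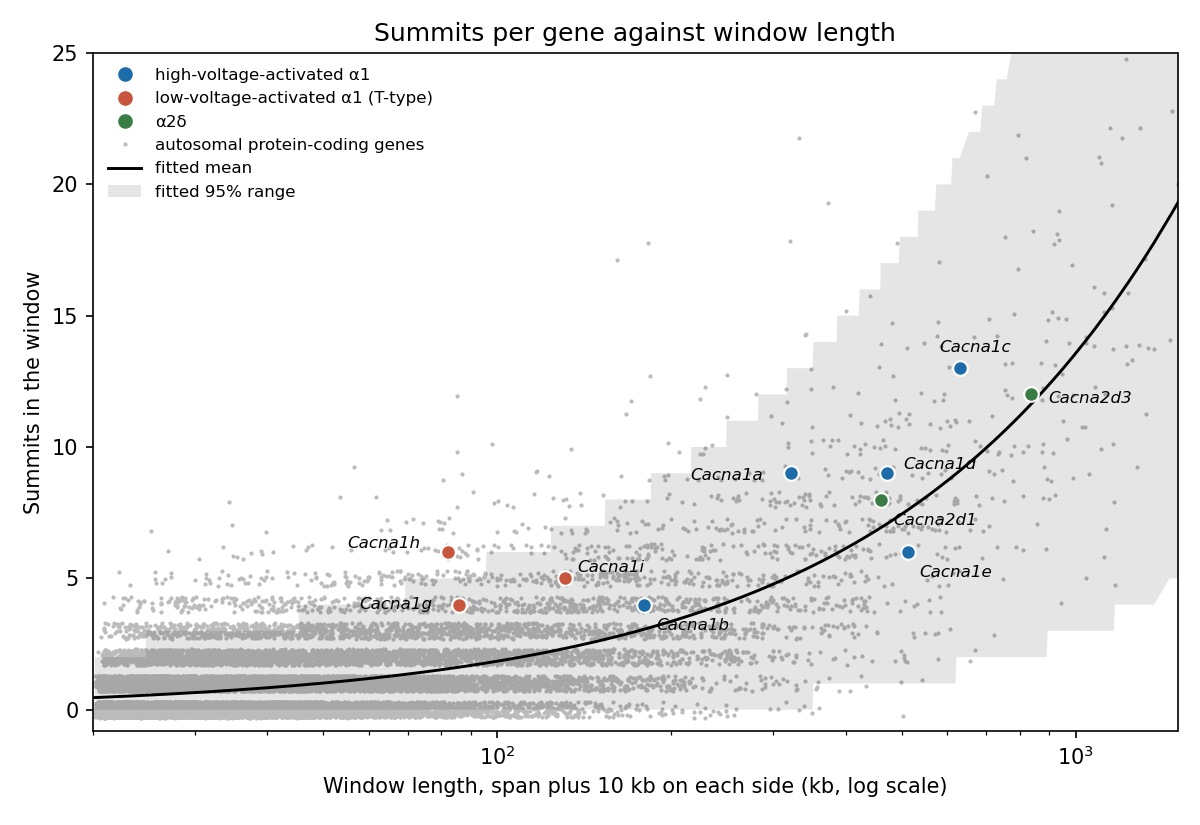
Summit count against window length for the 10 calcium channel genes (coloured) and all autosomal protein-coding genes (grey, spread slightly in height), with a logarithmic length axis, the fitted mean as a line and its 95% range shaded. The 10 genes all lie above the line except Cacna1e, with Cacna1h at 6 summits where 1.55 was fitted.

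The genes Cacna2d1 and Cacna2d3 encode α2δ subunits, largely extracellular proteins that raise the number of channels at the surface and at presynaptic sites. The Cacna2d1 product is a binding site of gabapentin. Together they held 20 summits at 1.54 per 100 kb (0.941 to 2.38), 1.08 times the fitted 18.6, so their number was close to that fitted for their length. Their peaks were by median stronger than those of the α1 genes. The median fold was 2.94 in the α2δ genes, 2.76 in the high-voltage-activated genes, 2.59 in the T-type genes and 2.77 in the rest of the list. In the α2δ genes 8 of 20 peaks (40%, 21.9 to 61.3) had a q of 0.05 or less, against 23.4% in the rest of the list, a value inside that interval. Without Cacna2d1, a setting chosen after seeing the data, the share was 25%, close to that of the list.

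Cacna2d1 lies on chromosome 5 from 15934264 to 16374511, on the plus strand, and held 8 summits. Of these 5 had a q of 0.05 or less, more than in any other of the 10 genes, and they followed each other without a weaker summit between them. Their summits lay at 16051906, 16123661, 16210825, 16252854 and 16299832, with folds of 3.11, 2.90, 3.29, 3.63 and 3.11. The strongest had 20 fragments and a q of 0.00437. No gap between Cacna2d1 summits was shorter than 27786 bp. The weaker summit at 16001084 also lay in Gm43000.

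Cacna2d3, the longest of the 10 at 817.8 kb, lies on chromosome 14 from 28904943 to 29722775, on the minus strand, and held 12 summits where 11.6 were fitted. Its peak at 29386407 was the strongest of the 76, with a fold of 3.89, a q of 0.000451 and 23 fragments over a control level of 5.17. It ranked 218th by fold in the whole list and was higher than 99.4% of it. It lay 336.4 kb downstream of the Cacna2d3 start, with 2 weaker summits within 8 kb at 29389568 (fold 2.14) and 29393881 (fold 2.42). Peaks at 29489378 and 29692702 had a fold of 3.29 and a q of 0.0208 each. An empty stretch of 194.5 kb lay between Cacna2d3 summits.

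**Figure D4:**
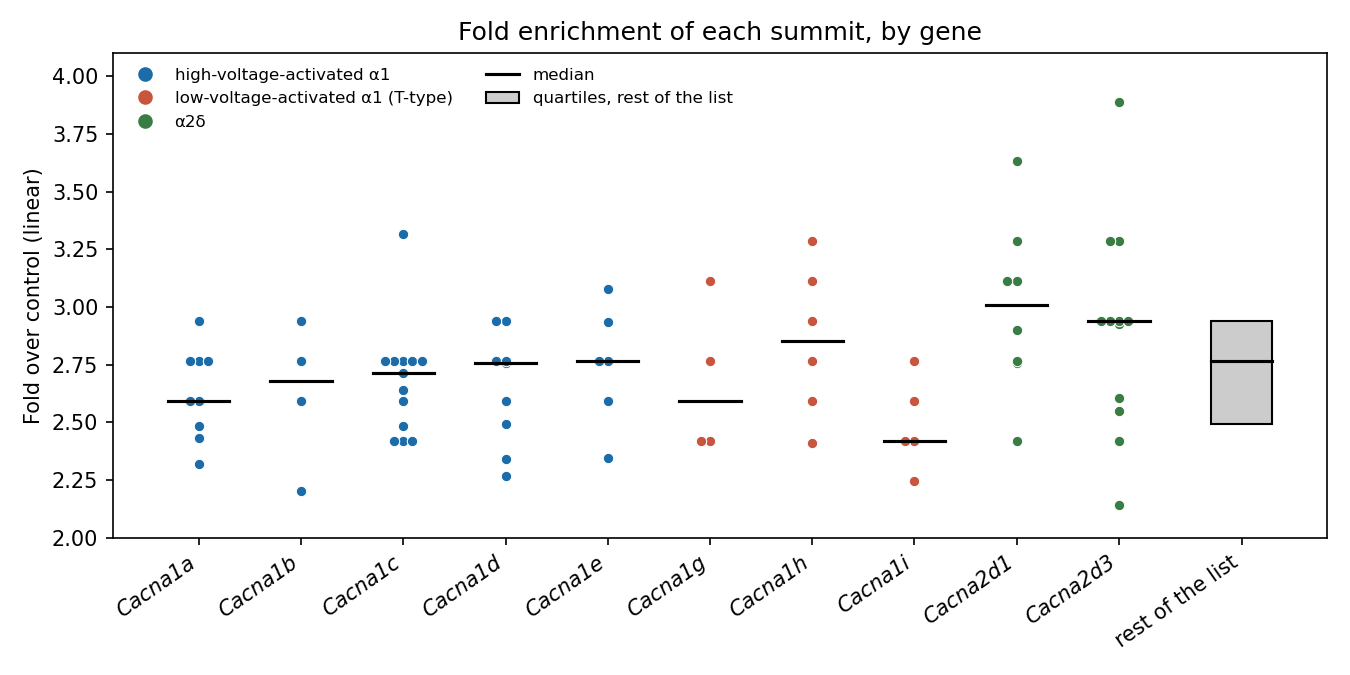
Fold over control of every peak in the 10 genes, as points by gene, with the rest of the list on the right as its median and quartiles. Cacna2d3 reaches 3.89 and Cacna2d1 3.63, while the Cacna1i peaks stop at 2.77.

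Peak strength over all 76 was like that of the list. The median fold was 2.77 with quartiles of 2.49 and 2.94, both in the 10 genes and in the rest of the list. Of the 76 peaks, 15 had a q of 0.05 or less, a share of 19.7% (12.3 to 30.0), against 23.4% (23.0 to 23.9) in the rest of the list and 23.4% in all. The share was 9.76% (3.86 to 22.5) in the high-voltage-activated genes, 4 of 41 peaks. The list's 23.4% lay above that interval, which treats the peaks of 5 genes as independent, and the difference was not tested. In the T-type genes the share was 20% (7.05 to 45.2), 3 of 15. A peak of q 0.05 or less was present in 6 of the 10 genes, against 22.2% of all autosomal protein-coding genes and 48.1% of the long ones. The long ones, with a median span of 114.6 kb, were not matched to the 10 in length, and a longer window has more room for such a peak. Summits held 12 to 23 fragments, with a median of 15 as in the rest of the list. The lowest control level applied to 65.8% of the 76 and to 71.1% of the rest. By class it applied to 56.1% of summits in the high-voltage-activated genes, 93.3% in the T-type genes and 65% in the α2δ genes. Its part in the shares of peaks with a q of 0.05 or less was not tested.

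Summits at gene ends were present in more of the 10 genes than in the background, and each such peak had a fold below the list's median of 2.77. Within 1 kb of an end, 4 of the 10 genes had a summit, against 8.68% of all autosomal protein-coding genes and 7.72% of the long ones, and none of these 4 peaks had a q of 0.05 or less. In Cacna1c the summit at 118587853 lay 613 bp inside the 3′ end, with a fold of 2.64. In Cacna2d1 the one at 16375249 lay 738 bp beyond the 3′ end, with a fold of 2.76. The other 2 were at lower-coordinate ends, of Cacna1g, 219 bp outside (fold 2.42), and of Cacna1h, 580 bp inside (fold 2.41), where the strand is not given by the tables used. Promoter windows of 250 bases before to 50 after a start were available for 7 of the 10 genes, 10 windows in all, and no peak touched one. The share touched among all promoter windows was not counted, so this lack of a touch has no background. The windows of the 7 genes sit at listed transcript starts, which need not be the start of the gene's span. The nearest summit to one was 19174 bp away, in Cacna1d, and the Cacna1e summit near the start of its span was 153842 bp from the Cacna1e window.

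Within the 7 genes of known strand, 56 summits lay inside the span and were spread along it. With each gene cut into 3 parts of equal length, the part at the start held 17, the middle part 20 and the end part 19. Across the 10 genes, counts were higher in longer genes (Spearman's rho 0.758, n = 10) and densities lower (rho -0.879, n = 10). Density has window length as its divisor, so the second value is in part built in. Over all genes, too, the fitted count rose less than in proportion to window length (slope 0.866). Both correlations are descriptions over genes that share the same libraries.

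Genes with the same count as the extreme members show how common those counts were. Cacna1c shared its 13 summits with 13 other genes, of which Dscam, Iqschfp and Negr1 were nearest in window length, at 603.7, 754.3 and 774.7 kb. Cacna1h shared its count of 6 with 198 others, and Morn1, Kdm3b and Jph3 were nearest, at 81.9, 82.4 and 80.5 kb. Windows of the 198 ran from 26.9 to 1117.6 kb, with a median of 188.1 kb. They therefore do not show how common 6 summits are in a window as short as that of Cacna1h, at 82.05 kb.

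The remaining 16 calcium channel subunit genes held 46 summits, or 2.64 per 100 kb (1.93 to 3.52), and 12 of them had at least 1. Cacna1s, the L-type pore gene of skeletal muscle, held 6 at 6.90 per 100 kb, with none of q 0.05 or less. Cacna1f, the retinal L-type pore gene on the X chromosome, held none. Of the other α2δ genes, Cacna2d2 held 6 summits and Cacna2d4 held 4, each with 2 peaks of q 0.05 or less. The genes for cytoplasmic β subunits, which bring the pore to the membrane, held 1 in Cacnb1, 9 in Cacnb2, 5 in Cacnb3 and 3 in Cacnb4. The Cacnb1 peak, at 98027336 in the neighbouring ribosomal protein gene Rpl19, had a fold of 3.98 and a q of 0.000497. Cacnb3 had the highest density of the family, 13.9 per 100 kb, but 3 of its 5 summits lay in its neighbour Ddx23.

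Among the γ family, Cacng2, which encodes stargazin, an auxiliary subunit of AMPA-type glutamate receptors, held 5 summits, the strongest at 78032632 with a fold of 3.80 and a q of 0.00162. Cacng1, the γ gene of skeletal muscle, held 1 with a fold of 3.46. Cacng3 held 3, Cacng4 held 2 and Cacng5 held 1, and Cacng6, Cacng7 and Cacng8 held none. None of the 15 autosomal genes among these was called by the negative binomial regression after adjustment, and the lowest unadjusted exact tail p was 0.00649, for Cacnb3.

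Cacnb2 was the single family gene with a peak touching its own promoter window, and it is shown for that reason, chosen after its values were seen. How many promoter windows of all genes were touched by a peak was not counted. The Cacnb2 window is chr2:14604056-14604355 on the plus strand, as listed by RefSeq for GRCm38.p6. Capitals mark bases 250 to 300, the 51 bases covered by the peak.

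Cacnb2 promoter: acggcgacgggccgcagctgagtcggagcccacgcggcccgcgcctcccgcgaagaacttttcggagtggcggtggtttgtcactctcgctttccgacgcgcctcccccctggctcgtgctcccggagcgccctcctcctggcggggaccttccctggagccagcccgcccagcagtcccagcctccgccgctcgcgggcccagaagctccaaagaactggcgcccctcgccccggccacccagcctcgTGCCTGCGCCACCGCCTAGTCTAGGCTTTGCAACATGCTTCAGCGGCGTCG

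The peak ran from 14604305 to 14604545 and its summit, at 14604366, was 11 bp past the window. It was a weak peak, with a fold of 2.27 and a q of 0.313. The window had a GC content of 71.7% and 35 CpG dinucleotides, against medians of 52.7% and 7 over 32851 promoter windows.

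The 10 calcium channel genes were set beside other neuronal channel families in the same list. Their 2.05 summits per 100 kb (1.61 to 2.56) stood beside 2.14 (1.41 to 3.11) in the 9 voltage-gated sodium channel α genes, and these intervals overlap. The 11 genes for AMPA and NMDA receptors, which carry fast excitatory transmission, had 1.29 (0.882 to 1.82), an interval that overlaps that of the calcium channel genes between 1.61 and 1.82. A summit within 1 kb of an end was found in 4 of the 10 calcium channel genes, in 1 of the 9 sodium channel genes and in 1 of the 11 receptor genes. It was found in 2 of the 16 other calcium channel subunit genes. The difference between families was not tested beyond these intervals.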

How the data were processed

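TOP2B cleavage complexes were measured in 2 ChIP and 2 input libraries of etoposide-treated neurons. The authors deposited 1 headerless peak list pooled over libraries. FastQC, Trimmomatic, BWA, SAMtools and MACS2, and builds mm10 and GRCm38.p6, are named per the submitters' processing notes. No version, caller setting or list of pooled libraries is given in the sources used here.

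Fold (a linear ratio), −log10 p-value and −log10 q-value per peak were deposited by the authors and identified by the MACS2 column order. The deposited display score was not used, and deposited positions were made 1-based. The smallest −log10 p was 2.00. With pooled peaks, neither replicates nor ChIP and input could be compared.

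Pileup was solved from deposited fold and p (1 added to pileup and control, tolerance 0.002) for 35495 of 35505 peaks (99.97%) on 19 autosomes and X, and 34 scaffold entries were left out. Genes, some strands and promoters came from RefSeq tables of GRCm38.p6. Summits per gene span plus 10 kb were counted and regressed on log window length by a negative binomial model (slope 0.866, dispersion 0.202) over 20665 genes, with two-sided tail p-values adjusted by Benjamini-Hochberg at 0.05. The fit was tested on simulated data, without change and with rises larger than the ratio of any of the 10 genes. It therefore does not show whether ratios of the size seen in the 10 genes would be called. Python 3.11.15, NumPy 2.4.6, SciPy 1.17.1, pandas 2.3.3 and matplotlib 3.10.9 were used.

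The members and lists were chosen with earlier results of these data known. Named were all members, the other family genes, 3 genes of equal count for 2 members, and genes overlapping a member summit. Alternatives were other flanks, q, fold and control limits, merged entries, interval overlap, end windows and other regressions.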

Additional observations from a re-analysis of the deposited data

How the results depend on the processing

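Of 35 alternative values, 9 moved and 26 stayed within 1.5 times, the counting interval or the same side of the threshold. Among the 26, the α2δ share of peaks with a q of 0.05 or less was 25% without Cacna2d1, against 40% with it. Stricter lists lowered the count by construction. With a q of 0.05 or less, the windows held 15 summits (0.404 per 100 kb), and with a fold at or above the list's median, 40 (1.08 per 100 kb). Densities over all genes were not worked out for these stricter lists, so the higher density of the full list is not shown for them. Peaks with a q of 0.05 or less made up 19.7% of those in the 10 genes and 23.4% of the rest. With a q of 0.01 or less, 2 genes had such a summit. With windows of 500 bp and 5 kb at gene ends, 1 and 7 genes had an end summit, and with a q of 0.05 or less, 0 did. Shares over all genes were not worked out for these end settings or for a q of 0.01, so these counts have no background. The share of peaks with a q of 0.1 or less was 35.5%. No flank gave 71 summits, a 50 kb flank 96 and merging within 1 kb 75. Over all genes, the negative binomial fit called 0 as reported, with chromosome added, without flanks and with merged entries. It called 1 gene with summits of q 0.05 or less and 3 among genes of 50 kb or more, and the Poisson fit called 11. None of the 10 calcium channel genes was called in these 7 fits. No paired analysis was possible because the list is pooled over libraries and holds no value per library, and leaving out a replicate was not possible for the same reason. Most summits hold 12 to 23 fragments, so folds move in steps and single weak peaks are imprecise.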
